A study of Arabidopsis thaliana with 4 samples.

Results

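The type-A response regulators of cytokinin are a family of 10 genes in Arabidopsis thaliana, ARR3 to ARR9 and ARR15 to ARR17, and were taken by locus from the 33518 loci with a read count. Whole seedlings of 2 groups were compared. HBI1-Ox seedlings carry the transgene 35S::HBI1-YFP, which places the bHLH transcription factor HBI1 fused to yellow fluorescent protein under the 35S promoter of cauliflower mosaic virus, active in most plant tissues, and Col-0 seedlings are the wild type. Both were 5 days old and had been raised under continuous light on MS medium of reduced strength, and each group had 2 RNA-seq libraries. Only this overexpressing line was set against Col-0, so that the level of HBI1 and any other difference of the line cannot be told apart.

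Cytokinin signals pass through a phosphorelay. Histidine kinase receptors hand a phosphate to small phosphotransfer proteins (AHPs), which carry it to type-B response regulators, the transcription factors of the pathway. These switch on the type-A genes within minutes, and type-A proteins, which have a receiver domain but no DNA-binding domain, dampen the signal in turn. Their transcripts are therefore the customary readout of cytokinin response in seedlings. The family consists of 5 pairs of close relatives. Coding sequences were identical at between 79.7% (ARR7 and ARR15) and 83.7% (ARR3 and ARR4) of aligned bases within a pair, and at between 64.9% and 75.4% in the other 40 combinations. The longest stretch without a mismatch within a pair ran to 41 bases, in ARR3 with ARR4 and in ARR8 with ARR9, and nothing in the sources used here says how reads in them were assigned.

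Libraries held between 10785178 and 19647745 reads on genes. HBI1 itself (AT2G18300) stood at 1567 and 1509 CPM (reads scaled to a common library total, with TMM normalisation) in the HBI1-Ox libraries against 99.3 and 84.6 CPM in the Col-0 libraries, as the labels have it, without the introduced and the native copy being told apart. The libraries of a group were not equally alike. Of 20320 genes with enough reads to be tested, 4.03% differed by more than 1.5-fold between the HBI1-Ox libraries and 8.18% between the Col-0 libraries. The Col-0 libraries were also the shallower ones, with 13068448 and 10785178 reads on genes against 19647745 and 14981824 in HBI1-Ox. The part of depth in this difference was not tested. Whether the libraries came from separate batches of plants is not stated, so p-values measure only how these libraries vary, and that variation may be technical. Markers of root, green tissue, shoot meristem, vasculature and dividing cells were all represented, though the meristem genes WUS and CLV3 had at most 3 reads in a library.

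Of the 10 type-A genes, 8 had enough reads to be tested, and 5 of these fell in HBI1-Ox: ARR4, ARR5, ARR6, ARR7 and ARR9. None rose. Among all 20320 tested genes, 7.15% fell and 8.33% rose (adjusted p under 0.05 in the quasi-likelihood test of edgeR, adjusted by Benjamini-Hochberg over these genes). ARR7 had the lowest log2 change, -2.61, and the other 4 had log2 changes between -0.79 and -0.40. The median log2 change of the 8 genes was -0.52, beside -0.012 for all tested genes. All 8 changes were below 0, as were those of 52.1% of tested genes. Without adjustment, the number of type-A genes higher in HBI1-Ox at p under 0.05 was 0 by edgeR, by DESeq2, by limma-voom and by limma-trend. The matching unadjusted shares of all tested genes are not given here. In 7 of the 8 genes both HBI1-Ox libraries lay below both Col-0 libraries, a position that 31.0% of all tested genes shared, while 0 of the 8 lay above both Col-0 libraries, beside 29.7% of tested genes. When the reads of both HBI1-Ox libraries were added up as 1 sample, or with HBI1-Ox library 1 or library 2 left out, 0 type-A genes passed by edgeR. In those settings the share of all tested genes that fell was also far lower, at 1.31%, 0.903% and 1.07%, while the log2 change of ARR4 was -0.79, -0.83 and -0.76. With Col-0 library 2 left out, the median log2 change of the tested type-A genes was -0.33. With Col-0 library 1 left out it was -0.77, over 9 genes. These took in ARR15 (log2 change -2.23 ± 0.74), which had too few reads when all libraries were used. ARR15 entered only through its 12 reads in Col-0 library 2, while the omitted Col-0 library 1 held 3.

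The stretches upstream of the 5 genes that fell together are shown for 2 kinds of short site. AGATT is the core of sites bound by type-B regulators, and CANNTG is the E-box, the site type of bHLH factors such as HBI1. Each stretch runs over the 300 bases that end just before the annotated gene start, 5′ to 3′ on the gene's strand, from the RefSeq TAIR10.1 genome. Capitals mark AGATT read on either strand (AATCT on the other). The windows are chr1:3444361-3444660 (minus strand), chr3:17760951-17761250 (minus), chr5:25254319-25254618 (minus), chr1:6579315-6579614 (minus) and chr3:21108759-21109058 (plus).
ARR4: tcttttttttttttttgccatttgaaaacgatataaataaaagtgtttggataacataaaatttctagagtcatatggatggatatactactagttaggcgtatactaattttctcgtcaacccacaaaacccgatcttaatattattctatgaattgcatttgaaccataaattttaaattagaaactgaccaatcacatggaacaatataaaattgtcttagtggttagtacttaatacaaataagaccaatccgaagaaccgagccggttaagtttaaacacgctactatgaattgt
ARR5: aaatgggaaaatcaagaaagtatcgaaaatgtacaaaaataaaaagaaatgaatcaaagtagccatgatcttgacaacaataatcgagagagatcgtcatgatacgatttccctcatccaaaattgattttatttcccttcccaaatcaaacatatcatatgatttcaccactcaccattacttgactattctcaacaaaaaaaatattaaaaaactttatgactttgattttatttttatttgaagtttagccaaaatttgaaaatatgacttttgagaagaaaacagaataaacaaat
ARR6: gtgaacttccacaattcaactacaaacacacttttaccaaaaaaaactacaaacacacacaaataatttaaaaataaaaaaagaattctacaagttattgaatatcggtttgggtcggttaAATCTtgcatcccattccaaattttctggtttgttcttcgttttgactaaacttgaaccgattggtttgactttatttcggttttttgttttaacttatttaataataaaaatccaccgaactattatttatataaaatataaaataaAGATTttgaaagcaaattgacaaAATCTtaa
ARR7: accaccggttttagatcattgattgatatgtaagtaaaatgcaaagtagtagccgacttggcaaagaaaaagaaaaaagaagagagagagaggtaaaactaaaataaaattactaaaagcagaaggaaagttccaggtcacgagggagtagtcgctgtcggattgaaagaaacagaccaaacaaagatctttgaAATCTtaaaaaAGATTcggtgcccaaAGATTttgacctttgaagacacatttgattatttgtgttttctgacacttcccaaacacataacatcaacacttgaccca
ARR9: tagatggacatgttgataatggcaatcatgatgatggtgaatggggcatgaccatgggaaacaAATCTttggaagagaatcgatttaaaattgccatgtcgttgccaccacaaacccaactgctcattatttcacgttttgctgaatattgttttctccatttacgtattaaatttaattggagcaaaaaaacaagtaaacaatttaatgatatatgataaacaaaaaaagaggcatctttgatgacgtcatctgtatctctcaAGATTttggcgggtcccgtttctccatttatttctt

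AGATT was present 3 times each before ARR6 and ARR7, 2 times before ARR9 and 0 times before ARR4 and ARR5, and the 3 copies before ARR7 began at positions -106, -95 and -80 from the gene start. Of all 10 type-A windows 7 held AGATT, against 70.7% of 27443 nuclear protein-coding genes. The longer form AAGATNTT, which includes AGATT where N is T, was found in 6 of the 10 windows and in 14.3% of all windows. The E-box CANNTG was found in 9 of the 10 and in 61.9% of all windows. It occurred 4 times before ARR4 and 0 times before ARR6. Its special case CACGTG, the G-box, was found in 0 of the 10 and in 7.09% of all. These matches describe the letters of the windows, and binding was not measured.

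ARR3 and ARR4 are the pair with the most alike coding sequences, and ARR4 is known for binding the photoreceptor phytochrome B. ARR4 (AT1G10470; chromosome 1, 3441988 to 3444360, minus strand, TAIR10.1) had 792 and 578 reads in HBI1-Ox libraries 1 and 2 and 837 and 952 reads in Col-0 libraries 1 and 2. In normalised terms that was 42.6 and 40.6 CPM in HBI1-Ox against 61.8 and 82.6 CPM in Col-0. Both HBI1-Ox libraries lay well under the lower Col-0 library. ARR4 fell by 0.79 ± 0.13 on the log2 scale (± standard error of the fit, as for every log2 change here; edgeR adjusted p = 0.0119), which left HBI1-Ox at 57.6% of the Col-0 mean. ARR3 (AT1G59940) gave 4.03 and 4.08 CPM in HBI1-Ox against 4.28 and 6.33 CPM in Col-0. The HBI1-Ox libraries were close to Col-0 library 1, and the gene did not pass (log2 change -0.38 ± 0.22, edgeR adjusted p = 0.311). The authors' deposited table of HBI1-Ox over Col-0 lists ARR4 with a log2 fold change of -0.78.

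ARR5 and ARR6 respond quickly to cytokinin, and the ARR5 promoter is widely used as a cytokinin reporter. ARR5 (AT3G48100; chromosome 3, 17758427 to 17760950, minus strand) had 282 and 178 reads, or 15.2 and 12.5 CPM, in HBI1-Ox against 253 and 296 reads, or 18.7 and 25.7 CPM, in Col-0. The highest HBI1-Ox library stayed below the lowest Col-0 library, although the HBI1-Ox libraries also differed somewhat from each other. ARR5 fell by 0.66 ± 0.17 on the log2 scale (edgeR adjusted p = 0.0467). That pass was narrow, since the edgeR adjusted p was 0.054 with the replicate number as a block and the limma-voom adjusted p was 0.0516. ARR6 (AT5G62920; chromosome 5, 25252007 to 25254318, minus strand) had 211 and 180 reads, or 11.3 and 12.6 CPM, in HBI1-Ox against 227 and 236 reads, or 16.8 and 20.5 CPM, in Col-0. ARR6 fell by 0.63 ± 0.13 on the log2 scale (edgeR adjusted p = 0.0224), a change of much the same size as in ARR5. The gene overlaps AT5G62910 on the opposite strand over 348 bases, and no source used here gives the strand setting of the count, so that reads of the shared stretch may not be assigned surely. AT5G62910 itself gave 14.5 and 16.2 CPM in HBI1-Ox against 15.06 and 15.01 CPM in Col-0, and did not pass (log2 change 0.02 ± 0.10, edgeR adjusted p = 0.923).

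ARR7 and ARR15 are known for restraining cytokinin signalling in stem cell niches, with ARR7 repressed by WUSCHEL in the shoot meristem. ARR7 (AT1G19050; chromosome 1, 6577833 to 6579314, minus strand, 5 exons) had 45 and 38 reads in HBI1-Ox against 112 and 268 reads in Col-0. Its level was 2.42 and 2.67 CPM in HBI1-Ox against 8.27 and 23.2 CPM in Col-0. The HBI1-Ox libraries were alike, whereas the Col-0 libraries were 2.81-fold apart, with library 2 the higher (95% exact counting interval 2.25 to 3.54). Of all tested genes, 99.6% had a lower ratio of Col-0 library 2 over library 1 than ARR7. ARR7 fell by 2.61 ± 0.51 on the log2 scale (edgeR adjusted p = 0.0204). Against Col-0 library 1 alone the log2 change was -1.71 ± 0.21 and against Col-0 library 2 alone it was -3.19 ± 0.16, so that its size rests on which Col-0 library is used while its direction does not. It missed the threshold with limma-voom (adjusted p = 0.0538), and the authors' deposited table lists it with a log2 fold change of -2.61.

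ARR15 (AT1G74890), the closest relative of ARR7, had too few reads to be tested, with 6 and 1 reads in HBI1-Ox against 3 and 12 reads in Col-0. The groups overlapped, and the pooled level in HBI1-Ox was 35.6% of that in Col-0 (95% exact counting interval 12.3% to 92.9%, for counting error only). As in ARR7, Col-0 library 2 held more than Col-0 library 1, by 4.7-fold (interval 1.27 to 26).

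**Figure D1:**
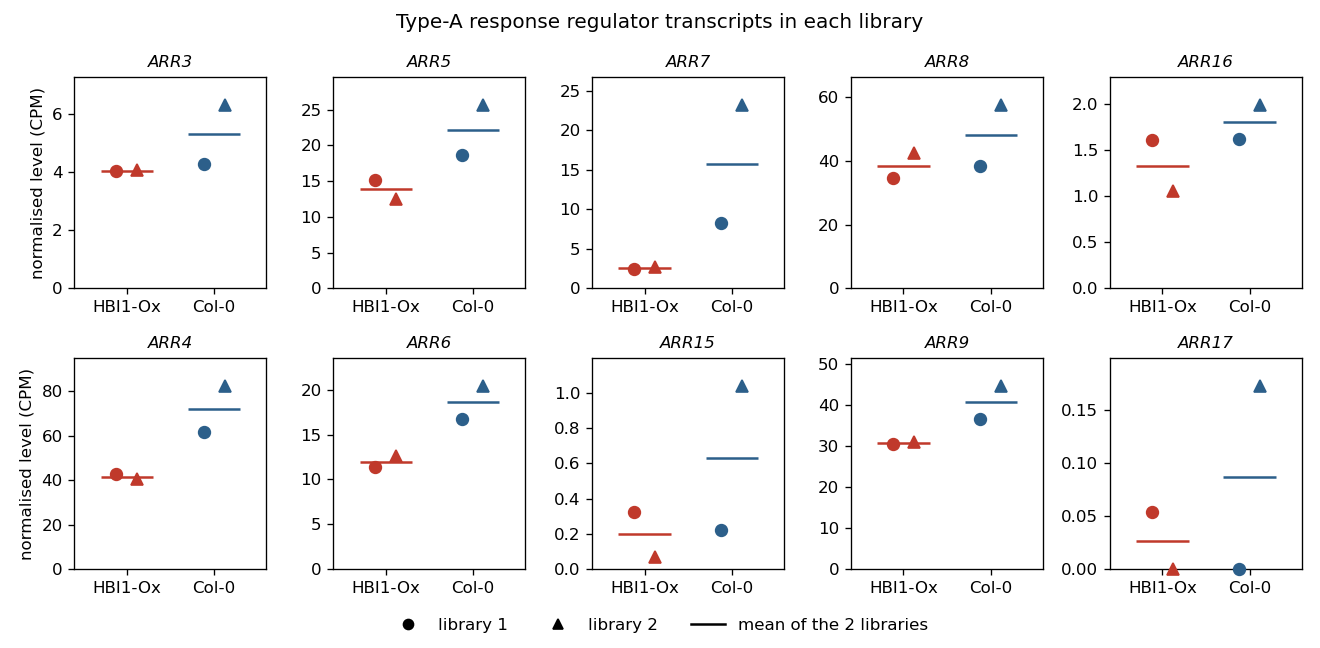
Normalised level (CPM, linear axes from 0, each gene on its own scale) of the 10 type-A genes in the 2 HBI1-Ox and 2 Col-0 libraries, with bars at the mean. Col-0 library 2 is the highest point in every panel, and for ARR7 it stands at 23.2 CPM, above 8.27 CPM in Col-0 library 1.

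ARR8 and ARR9 are a pair that responds less to cytokinin than ARR5, ARR6 and ARR7 do. ARR9 (AT3G57040; chromosome 3, 21109059 to 21111567, plus strand) had 566 and 441 reads, or 30.4 and 31.0 CPM, in HBI1-Ox against 496 and 516 reads, or 36.6 and 44.8 CPM, in Col-0. The HBI1-Ox libraries were nearly equal and lay below both Col-0 libraries. ARR9 fell by 0.40 ± 0.10 on the log2 scale (edgeR adjusted p = 0.0429), but missed the threshold with DESeq2 (adjusted p = 0.0952). ARR8 (AT2G41310) had 642 and 603 reads, or 34.5 and 42.4 CPM, in HBI1-Ox against 519 and 664 reads, or 38.3 and 57.6 CPM, in Col-0. Here the groups overlapped, with HBI1-Ox library 2 above Col-0 library 1, and ARR8 did not pass (log2 change -0.32 ± 0.19, edgeR adjusted p = 0.319). Both genes overlap an annotated long non-coding RNA gene on the other strand, over 299 bases for ARR8 and 231 bases for ARR9, and reads from these were not told apart here.

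ARR16 and ARR17 encode the shortest proteins of the family, little more than a receiver domain. ARR16 (AT2G40670) had 30 and 15 reads in HBI1-Ox against 22 and 23 reads in Col-0, which came to 1.61 and 1.05 CPM in HBI1-Ox against 1.62 and 1.99 CPM in Col-0. The nearest libraries of the groups were practically equal, and the gene did not pass (log2 change -0.40 ± 0.31, edgeR adjusted p = 0.438). At this depth a pooled level anywhere between 49.4% and 118% of Col-0 falls within counting error. ARR17 (AT3G56380) was close to undetected, with 1 and 0 reads in HBI1-Ox and 0 and 2 reads in Col-0. A count of 0 allows up to 3 reads, so no change could be given for it.

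**Figure D2:**
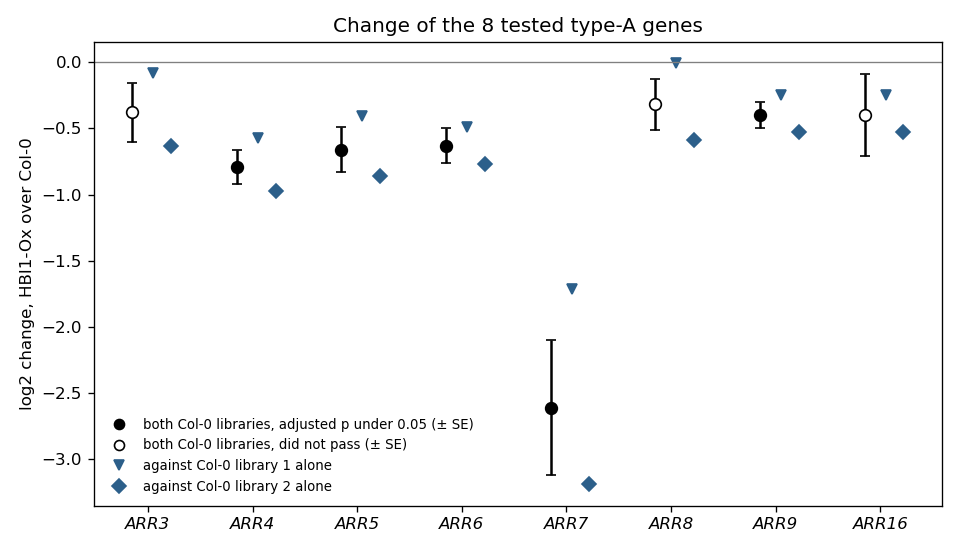
Log2 change of HBI1-Ox over Col-0 for the 8 tested type-A genes (circles, filled where the gene passed, with standard errors), and the same fit with only 1 of the Col-0 libraries (triangles for library 1, diamonds for library 2). All points lie below 0, and for each gene the change against Col-0 library 2 is the more negative one, as with ARR7 at -3.19 against -1.71.

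Seen within Col-0, the whole family was higher in library 2. All 10 genes had a higher CPM in Col-0 library 2 than in Col-0 library 1, where 50.2% of tested genes did. For 8 of the 10 the counting interval of the ratio did not include 1, a share not given here for all tested genes. Between 86.5% (for ARR6 and ARR9) and 99.6% (for ARR7) of tested genes had a lower ratio than a tested type-A gene. For the 8 tested genes the ratio of Col-0 library 2 over library 1 ran from 1.22 in ARR6 and ARR9 to 2.81 in ARR7, with a median of 1.36. The corresponding median over all tested genes was 1. Between the HBI1-Ox libraries, 5 of the 10 type-A genes were higher in library 2, beside 49.0% of tested genes, and the median ratio of library 2 over library 1 over the 8 tested genes was 1.01. Only ARR5 (0.825, interval 0.68 to 0.999) and ARR8 (1.23, interval 1.1 to 1.37) had intervals in HBI1-Ox that did not include 1. Since the members of a family are read from the same libraries, these ratios are not independent of one another.

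The log2 changes were closer to 0 when only Col-0 library 1 was used. Log2 changes against it were -0.57 ± 0.07 for ARR4, -0.41 ± 0.12 for ARR5, -0.49 ± 0.12 for ARR6 and -0.25 ± 0.08 for ARR9, and these genes and ARR7 passed (the highest edgeR adjusted p being 0.0137, for ARR9). For ARR3 and ARR8 the log2 changes against Col-0 library 1 were -0.08 ± 0.23 and -0.01 ± 0.09, and neither passed (edgeR adjusted p = 0.842 and 0.951). Against Col-0 library 2 alone the same genes had -0.63 ± 0.21 and -0.59 ± 0.08, and both passed (edgeR adjusted p = 0.0156 and 1.34e-08). In these fits the lone Col-0 library is assumed to vary as the HBI1-Ox libraries did, which makes a pass easier to reach. What set Col-0 library 2 apart was not tested.

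**Figure D3:**
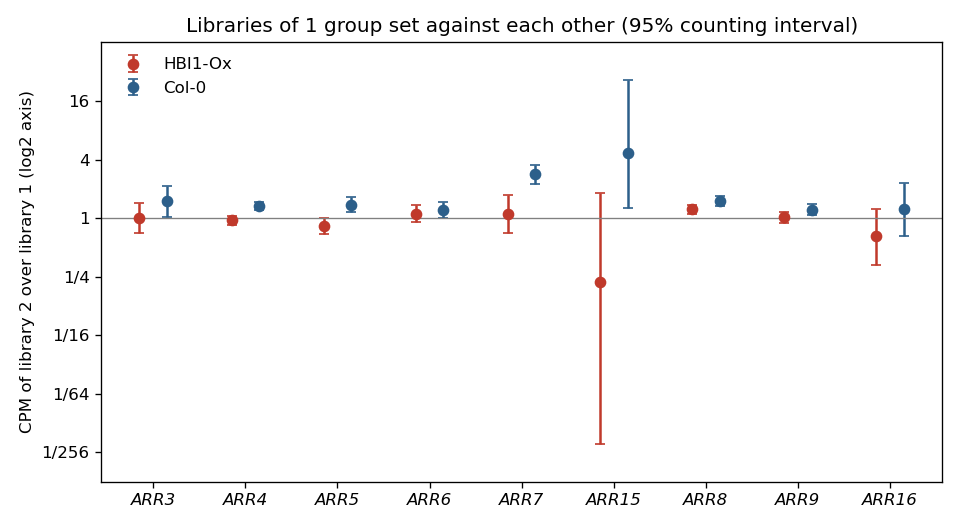
Ratio of the CPM of library 2 over library 1 within HBI1-Ox and within Col-0 for 9 type-A genes (log2 axis, 95% exact counting intervals); ARR17 is left out because it has 0 reads in Col-0 library 1. The Col-0 points all lie above 1, up to 2.81 in ARR7 and 4.7 in ARR15, while the HBI1-Ox points lie on both sides of 1.

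Levels of different genes were compared as CPM per kilobase of annotated exon. In HBI1-Ox, ARR4 was the most abundant at 19.8 ± 0.7 CPM per kilobase (mean ± SD, n = 2 libraries, as for the levels that follow). ARR8 and ARR9 came next at 16.2 ± 2.3 and 16.2 ± 0.2, and could not be ranked against each other. ARR5 (9.54 ± 1.30) and ARR6 (8.22 ± 0.63) also overlapped, ARR3 (3.09 ± 0.02) and ARR7 (2.70 ± 0.19) were lower, and ARR16, ARR15 and ARR17 were all under 1. In Col-0, ARR4 again led at 34.4 ± 7.0 CPM per kilobase. ARR9 (21.5 ± 3.0), ARR8 (20.2 ± 5.8), ARR7 (16.7 ± 11.2), ARR5 (15.3 ± 3.4) and ARR6 (12.8 ± 1.8) followed. The spreads of these genes overlapped, except that ARR9 lay above ARR6. ARR7 was the gene whose place moved most: it ranked 7 of 10 in both HBI1-Ox libraries, and in Col-0 it ranked 6 by library 1 and 2 by library 2.

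Summed over the family, type-A transcripts came to 76.0 and 77.4 CPM per kilobase in HBI1-Ox against 102.3 and 150.7 in Col-0. ARR7 made up 3.4% and 3.7% of that sum in HBI1-Ox against 8.6% and 16.4% in Col-0. With ARR7 left out, the sum of the other 9 was 73.4 and 74.6 CPM per kilobase in HBI1-Ox against 93.5 and 126.0 in Col-0, so HBI1-Ox remained below both Col-0 libraries. In whole seedlings a lower sum can mean fewer cells that express these genes or less RNA per cell, and the data cannot tell these apart.

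Of the genes that act in the phosphorelay before the type-A regulators, 1 fell and the others tested did not pass. None of the 3 receptor genes passed; the most abundant, AHK3, had 127.3 and 123.9 CPM in HBI1-Ox against 110.6 and 110.6 CPM in Col-0 (log2 change 0.18 ± 0.06, edgeR adjusted p = 0.0763). Of 5 tested AHP genes 1 fell, AHP1, which stood at 14.3 and 13.1 CPM in HBI1-Ox against 21.3 and 21.7 CPM in Col-0 (log2 change -0.65 ± 0.09, edgeR adjusted p = 0.00589). Its Col-0 libraries were nearly equal, unlike those of the type-A genes. None of the 6 tested type-B regulators passed, and ARR1, the one with the most reads, had 81.9 and 73.6 CPM in HBI1-Ox against 66.0 and 62.9 CPM in Col-0 (log2 change 0.27 ± 0.08, edgeR adjusted p = 0.0592). A further 5 type-B genes had too few reads, and the type-C genes ARR22 and ARR24 had 0 reads in every library.

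Among 12 tested genes of cytokinin synthesis, 2 fell. CYP735A2, which encodes the hydroxylase that makes trans-zeatin forms of cytokinin and is itself induced by cytokinin, had 31 and 19 reads in HBI1-Ox against 156 and 196 reads in Col-0. Its level was 1.67 and 1.33 CPM in HBI1-Ox against 11.5 and 17.0 CPM in Col-0, and it fell by 3.21 ± 0.26 on the log2 scale (edgeR adjusted p = 0.000941). The gap between groups was wide compared with the gap within either. This was the only one of the cytokinin genes that also passed when the HBI1-Ox reads were pooled (edgeR adjusted p = 0.0169) or when HBI1-Ox library 1 (0.0233) or library 2 (0.0224) was left out. LOG7, which releases active cytokinin from its nucleotide, had 14.3 and 12.6 CPM in HBI1-Ox against 18.7 and 18.3 CPM in Col-0, and it fell (log2 change -0.46 ± 0.10, edgeR adjusted p = 0.0283), though not with DESeq2 (adjusted p = 0.148). The authors' deposited table lists CYP735A2 at -3.23, CRF6 at -0.74 and AHP1 at -0.64 on the log2 scale. It lists 2 of the 10 type-A genes among its 1256 loci. The smallest log2 fold change in that table is 0.56 in size. The changes of ARR3, ARR8, ARR9 and ARR16 given above were smaller than that, while ARR5 and ARR6, with larger ones, are not listed either.

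Of 8 tested genes that break down or conjugate cytokinin 1 fell, UGT76C2, which attaches glucose to the hormone, with 20.2 and 21.4 CPM in HBI1-Ox against 27.6 and 33.6 CPM in Col-0 (log2 change -0.55 ± 0.11, edgeR adjusted p = 0.0189). Of 8 tested cytokinin response factors and other induced genes 2 fell and 6 did not pass. CRF6 had 6.35 and 6.11 CPM in HBI1-Ox against 9.38 and 11.7 CPM in Col-0 (log2 change -0.75 ± 0.15, edgeR adjusted p = 0.0228), and narrowly missed the threshold with DESeq2 (adjusted p = 0.0516). CGA1, a GATA factor of greening, had 11.5 and 11.9 CPM in HBI1-Ox against 14.8 and 19.1 CPM in Col-0 (log2 change -0.54 ± 0.14, edgeR adjusted p = 0.047). Its pass was narrow and was lost with DESeq2 (adjusted p = 0.123). Neither of the 2 transport genes passed, and the more abundant of them, PUP14, had 127.4 and 129.3 CPM in HBI1-Ox against 116.4 and 197.3 CPM in Col-0 (log2 change -0.29 ± 0.22, edgeR adjusted p = 0.423). Its Col-0 library 2, like that of the type-A genes, was the high one.

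Over all 44 tested genes of the pathway outside the type-A family, 6 fell, 38 did not pass and 0 rose by edgeR, where 7.15% of all tested genes fell and 8.33% rose. Without adjustment 17 were lower and 4 higher at p under 0.05 by edgeR, and 8 lower and 2 higher by DESeq2. By limma-voom 15 were lower and 4 higher, and by limma-trend 16 and 3. The matching unadjusted shares of all tested genes are not given here. The number higher after adjustment was also 0 by DESeq2, limma-voom and limma-trend. The median log2 change was -0.23, between that of the type-A genes and that of all tested genes. It differed by list. Breakdown and conjugation genes (-0.56) and response factors and other induced genes (-0.51) lay near the type-A median of -0.52. Synthesis genes stood at -0.23, transport genes at -0.11, AHP genes at -0.08, receptors at 0.03 and type-B regulators at 0.09. Of the 44 genes, 29 had a higher CPM in Col-0 library 2 than in Col-0 library 1, beside 50.2% of all tested genes. That held for 7 of the 8 response factors and other induced genes and for 4 of the 8 breakdown and conjugation genes.

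**Figure D4:**
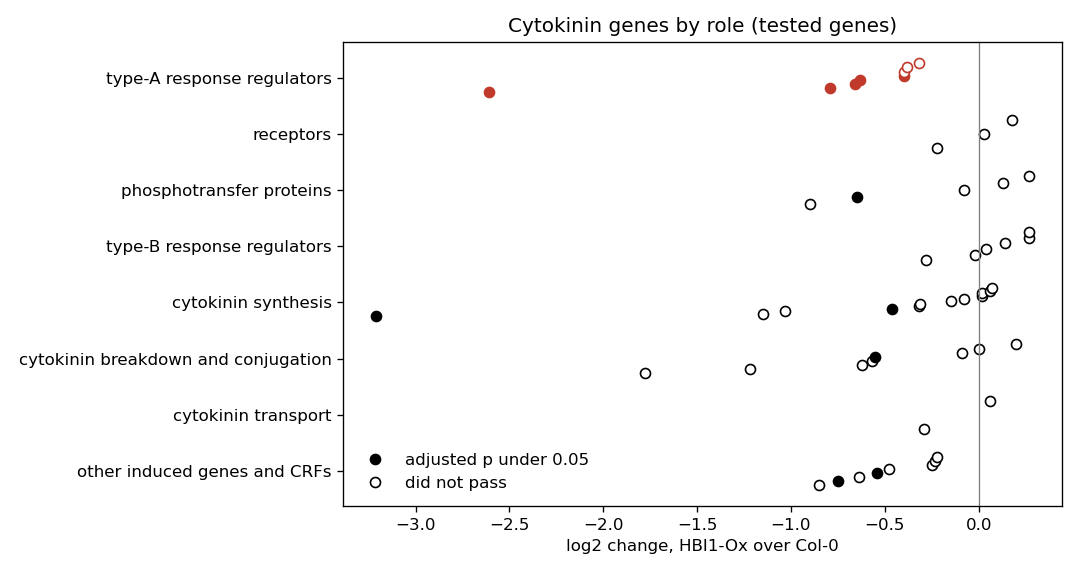
Log2 change of HBI1-Ox over Col-0 for tested cytokinin genes by role, type-A regulators in red, filled where adjusted p was under 0.05. All 8 type-A genes and all 8 tested response factors and other induced genes lie below 0, and the points farthest left are CYP735A2 at -3.21 and ARR7 at -2.61, whereas receptors and type-B regulators lie around 0.

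Genes whose pattern over the 4 libraries was most like the median type-A profile were found by Euclidean distance between centred log2(CPM + 0.5) values. The profile stood at -0.25 and -0.31 in HBI1-Ox libraries 1 and 2 and at 0.08 and 0.44 in Col-0 libraries 1 and 2. The nearest of 12519 genes with at least 10 CPM was TGA4, a bZIP transcription factor gene, at a distance of 0.0278, with 26.7 and 25.7 CPM in HBI1-Ox against 33.4 and 43.7 CPM in Col-0. AT3G54830, AT3G22060, HIR2 and GUS1 followed at distances of 0.0509 to 0.0606. With only 4 libraries a close match says little by itself, and 147 of the 12519 genes lay within 0.2.

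Marker levels shifted between the groups as well. The summed level of 5 green tissue markers was 37400 and 38760 CPM in HBI1-Ox against 30190 and 28770 CPM in Col-0, and 4 of the 5 rose. That of 7 root markers was 3655 and 3591 CPM in HBI1-Ox against 5878 and 5686 CPM in Col-0, nearly all of it from PYK10, the 1 root marker that fell, while SHR, SCR and CASP1 did not pass. The 5 shoot meristem markers summed to 110.8 and 104.1 CPM in HBI1-Ox against 117.1 and 125.1 CPM in Col-0, with 1 of the 5, KNAT1, falling. Vascular markers summed to 324.3 and 339.6 CPM in HBI1-Ox against 313.9 and 298.2 CPM in Col-0 (1 of 5 rose). Markers of dividing cells summed to 103.9 and 104.0 CPM in HBI1-Ox against 112.4 and 100.8 CPM in Col-0 (1 of 5 fell). Between the Col-0 libraries, all 5 shoot meristem markers and 5 of the 7 root markers were higher in library 2, beside 50.2% of tested genes. The same held for 2 of 5 green tissue markers, 1 of 5 vascular markers and 1 of 5 markers of dividing cells. Several of these differences were small or rested on few reads. In Col-0 libraries 1 and 2, CLV1 had 74.0 and 79.0 CPM, and WUS had 3 reads in each. SHR, at 20.5 and 25.8 CPM, differed more, while PYK10 and CASP1 were lower in library 2. The part of tissue composition in the type-A result was not tested.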

How the data were processed

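Total RNA of whole seedlings was sequenced in 4 libraries, which per the labels' protocols were made with a TruSeq RNA kit. The authors deposited raw read counts per gene; per the submitters' processing notes TopHat, DESeq and the TAIR10 build were used, and versions, read counter and strand setting are not stated there. Between 13.2% and 13.7% of reads stood in closing rows that name no gene and were left out. A second deposited table holds the authors' log2 fold changes for 1256 loci, with no rule of selection stated. Groups came from the sample titles.

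The filter on low reads was filterByExpr, with a minimum count of 10 and a minimum total of 15. TMM scaling and the quasi-likelihood test (glmQLFit, glmQLFTest) came from edgeR 4.0.16, run under R 4.3.3, with 2 residual degrees of freedom and no block, and p-values were adjusted by Benjamini-Hochberg over 20320 genes. For a single value, the smallest p of an exact permutation test with 2 libraries a group is 0.33. Alternatives were RLE and total-count scaling, other filters, DESeq2 1.42.0, limma 3.58.1, a replicate block, left-out or summed libraries, and a threshold of 0.01. The script was tested on simulated data. Ratios of libraries carry 95% exact binomial (Clopper-Pearson) intervals, computed in SciPy 1.17.1. Gene models and upstream windows came from RefSeq TAIR10.1, with coding sequences aligned in Biopython 1.88. The named genes were the 10 type-A genes, HBI1, up to 3 passing genes per pathway list (or the one with the most reads) and the 5 nearest in pattern. The members and lists were chosen with earlier results of these data known.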

Additional observations from a re-analysis of the deposited data

How the results depend on the processing

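The direction of all 8 tested type-A genes was the same under every alternative run. The number that fell (5 in the analysis reported) was 3 with limma-voom and 0 at a threshold of 0.01 or with the HBI1-Ox libraries summed, and ranged from 0 to 8 when 1 library was left out. Of all tested genes 7.15% fell in the analysis reported, 7.26% with limma-voom, 2.55% at a threshold of 0.01, 1.31% with the libraries summed, and 0.903% to 14.5% when 1 library was left out. The median log2 change (-0.52) ranged from -0.77 to -0.33 when 1 library was left out. In 3 of these settings it covers 9 genes, ARR15 included. ARR15 entered only through its 12 reads in Col-0 library 2, and the upper end of the number that fell counts it. The number of other cytokinin genes that fell (6) was 13 with total-count scaling, where 17.2% of all tested genes fell, 2 at a threshold of 0.01 and 1 with the HBI1-Ox libraries summed, and ranged from 1 to 19 when 1 library was left out. The number that rose (0) was 2 without the low-count filter and ranged from 0 to 3 when 1 library was left out, beside 8.39% and 1.17% to 17.0% of all tested genes. PUP14 had log2 changes from -0.61 to 0.14 when 1 library was left out, and reversed without Col-0 library 2. In that setting Col-0 library 1, at 116.4 CPM, below both HBI1-Ox libraries, is the only comparator; for the other values the cause was not tested. Total-count scaling moved the median over all tested genes to -0.162, and relative to that median the type-A changes ran from -2.61 to -0.31, as under TMM. With the replicate number as a block, 4 type-A genes fell, ARR5 not passing, and 8 other cytokinin genes fell. In that setting 6.58% of all tested genes fell. The replicate numbers are not known to pair the libraries. Over genes the correlation of the differences between libraries 1 and 2 of both groups was 0.00038. Depth limits ARR15, ARR16 and ARR17, with at most 30 reads in a library.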

Other observations

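Some genes of cytokinin turnover and response outside the type-A family also differed between the Col-0 libraries. Of the 44 tested, the 95% exact counting interval of the ratio of library 2 over library 1 lay above 1 in 10 and below 1 in 3. It covered 1 in the other 31. The intervals hold counting error only, and the matching shares of all tested genes are not given here, so these counts cannot be set against them. The genes that follow were chosen after their values were seen. CKX4, a cytokinin oxidase gene, had 2.58 and 2.74 CPM in HBI1-Ox libraries 1 and 2 against 3.99 and 14.8 CPM in Col-0 libraries 1 and 2, so that Col-0 library 2 was 3.7-fold above library 1 (interval 2.71 to 5.12). CRF2, a cytokinin response factor gene, had 9.09 and 10.6 CPM in HBI1-Ox against 11.3 and 24.6 CPM in Col-0, and its Col-0 libraries were 2.17-fold apart (interval 1.78 to 2.66). IPT3, which carries out the first step of cytokinin synthesis and is induced by nitrate, had 4.03 and 3.72 CPM in HBI1-Ox against 5.76 and 11.8 CPM in Col-0, a ratio of 2.05 between the Col-0 libraries (interval 1.54 to 2.74). Of all tested genes, 98.8% had a lower ratio than IPT3, 99.1% a lower one than CRF2 and 99.8% a lower one than CKX4. In the other direction, AHK2 had a ratio of 0.809 (interval 0.708 to 0.923), IPT9 of 0.804 (interval 0.657 to 0.982) and LOG8 of 0.836 (interval 0.704 to 0.993). None of IPT3, CRF2 and CKX4 passed the comparison of HBI1-Ox with Col-0 (edgeR adjusted p = 0.0675 for IPT3, 0.145 for CRF2 and 0.0926 for CKX4).

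CYP735A1, the relative of CYP735A2, had too few reads to be tested, with 3 reads in each HBI1-Ox library against 6 and 14 reads in the Col-0 libraries. ASL9, a cytokinin-induced LOB-domain gene, had 0 and 2 reads in HBI1-Ox against 7 in each Col-0 library.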
